A study of Mus musculus with 4 samples.

Results

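The phagocyte NADPH oxidase was examined through 6 genes of its subunits and of the Rac GTPases, namely Cybb, Cyba, Ncf1, Ncf4, Rac1 and Rac2. They were listed by symbol, with earlier results of these data known, and each matched 1 of the 35798 named genes in the deposited table. The libraries came from Ly49H+ NK cells, the NK cell subset whose receptor recognises murine cytomegalovirus (MCMV), sorted from spleen on D3.5 of infection. Wild-type cells carried the CD45.1 allele and TNFR2 KO cells, which lack the TNF receptor encoded by Tnfrsf1b, carried CD45.2, and cells of both genotypes were placed together in NSG mice that were then infected. There were 2 libraries per genotype, each from a pool of the spleens of 3 mice, and a wild-type and a TNFR2 KO library of the same number shared a pool, though the labels do not say whether the pools came from different mice. Transfer, host, infection and day were the same in both groups, whereas the genotype went along with the CD45 allele and with the sort gate, and these cannot be told apart. NSG mice lack their own T, B and NK cells but keep myeloid cells such as monocytes, macrophages and neutrophils. The labels give neither the age of the animals nor the CD45 allele of the host cells, and there was no uninfected group.

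The oxidase of phagocytes moves electrons from NADPH across a membrane onto oxygen and so makes superoxide, which macrophages and neutrophils use against microbes. Its catalytic core is a membrane flavocytochrome of gp91phox (NOX2, from Cybb) and p22phox (from Cyba). In resting cells the regulatory subunits, among them p47phox (Ncf1) and p40phox (Ncf4), stay in the cytosol, and they join the core when the cell is activated, together with GTP-bound Rac. Rac1 and Rac2 also act outside the oxidase, on actin and cell movement, and Rac2 is the form particular to blood cells.

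The libraries held between 32713054 and 39543464 counts in named genes, and 13822 genes passed the filter on low counts and were tested. Levels are CPM, counts relative to the size of each library, scaled with edgeR's TMM factors, and differences are log2-fold changes, TNFR2 KO over wild-type, from edgeR's quasi-likelihood test, with p-values adjusted over all genes tested. The targeted gene, Tnfrsf1b, stood at 265 and 269 CPM in wild-type but at 55.1 and 58.6 CPM in TNFR2 KO libraries. It was thus lower in both libraries labelled TNFR2 KO, though not absent. The libraries also differed in markers of other cells. The summed level of 24 NK lineage genes was 18023 and 17933 CPM in wild-type and 32989 and 32633 CPM in TNFR2 KO libraries, while 16 genes of neutrophils and their precursors summed to 1046 and 1062 CPM in wild-type and to 112 and 107 CPM in TNFR2 KO libraries. Of the 24 NK lineage genes, 23 were higher in TNFR2 KO libraries and 1, Cd226, was lower (log2-fold change -0.39). All comparisons were therefore repeated after scaling the libraries on the sum of these genes. That sum was led by Gzma and Gzmb, at means of 5805 and 3876 CPM in wild-type libraries. The scaling moved the median over all genes from -0.0028 to -0.87 on the log2 scale.

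The start sites of the genes are shown first, for the members with a promoter given. RefSeq promoters were given for 3 of the 6 genes, each as 250 bases before and 50 bases after the start site on GRCm38.p6. That of Cybb lies at chrX:9469275-9469574, that of Ncf1 at chr5:134229576-134229875 and that of Cyba at chr8:122432891-122433190, all on the minus strand. The Cybb window lies inside the annotated gene, which runs up to 9487771, so the outermost annotated start lies further upstream. Capitals mark matches, on either strand, to 4 motifs: GAGGAA, a core bound by ETS factors such as PU.1, the IRF-type element GAAANNGAAA, the CCAAT box, and the GC box GGGCGG.
Cybb: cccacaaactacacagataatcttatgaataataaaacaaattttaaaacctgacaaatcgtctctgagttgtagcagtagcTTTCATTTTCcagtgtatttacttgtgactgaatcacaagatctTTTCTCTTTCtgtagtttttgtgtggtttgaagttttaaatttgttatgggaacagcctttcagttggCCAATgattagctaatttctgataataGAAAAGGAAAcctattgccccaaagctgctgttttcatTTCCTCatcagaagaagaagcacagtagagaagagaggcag
Ncf1: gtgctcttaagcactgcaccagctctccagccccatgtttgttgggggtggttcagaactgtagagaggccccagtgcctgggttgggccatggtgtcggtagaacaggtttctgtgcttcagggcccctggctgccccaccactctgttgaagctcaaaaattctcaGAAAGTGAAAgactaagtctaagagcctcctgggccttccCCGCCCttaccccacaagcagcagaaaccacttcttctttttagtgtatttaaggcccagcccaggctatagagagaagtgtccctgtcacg
Cyba: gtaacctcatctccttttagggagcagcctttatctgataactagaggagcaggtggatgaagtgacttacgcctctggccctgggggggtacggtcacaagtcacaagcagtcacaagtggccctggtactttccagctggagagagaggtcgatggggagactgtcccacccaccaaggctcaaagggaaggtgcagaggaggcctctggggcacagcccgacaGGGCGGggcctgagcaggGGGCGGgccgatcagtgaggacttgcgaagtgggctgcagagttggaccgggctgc
The Cybb window held the IRF-type element 3 times. It began 168 and 124 bases before the start site on the opposite strand, and 29 bases before it on the strand of the gene. The CCAAT box was held once, 56 bases before the start site. The ETS core was held once, beginning 9 bases after the start site on the opposite strand. The Ncf1 window held 1 IRF-type element 82 bases before the start site. It also held 1 GC box 42 bases before it on the opposite strand. The Cyba window held GC boxes 24 and 6 bases before the start site. Of 32851 RefSeq promoters of this length, 3.44% held the IRF-type element, 28.3% the ETS core, 37.4% the CCAAT box and 35.7% the GC box. The matches are letters in a window, and binding was not measured here. Any part of these motifs in the differences between the groups was not tested.

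Cybb, which lies on chromosome X from 9435252 to 9487771 on the minus strand of GRCm38, was the member that differed most between the groups. Wild-type libraries held it at 316 and 295 CPM, TNFR2 KO libraries at 31.5 and 34.4 CPM. The groups did not overlap, and the lower wild-type library stood far above the higher TNFR2 KO library. The mean fell from 306 ± 15.1 CPM (SD, n = 2) to 33 ± 2.02 CPM (SD, n = 2), a level 9.30-fold higher in wild-type. The fitted log2-fold change was -3.22 (SE 0.0472; 95% interval from -3.32 to -3.11; edgeR adjusted p = 7.02e-14), which was rank 33 by p among all genes tested. These values rest on 11999 and 10874 counts in wild-type and 1220 and 1102 counts in TNFR2 KO libraries. In bulk RNA, fewer cells of a type that expresses a gene and less of its RNA per cell cannot be told apart.

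Cyba, the partner of gp91phox in the membrane and the subunit that anchors p47phox, did not follow Cybb. It lies on chromosome 8 from 122424776 to 122432930. Its level was 298 and 302 CPM in wild-type and 296 and 303 CPM in TNFR2 KO libraries. The values of the groups overlapped, with the lowest and the highest both in TNFR2 KO libraries. The log2-fold change was 0.00054 (SE 0.0263; edgeR adjusted p = 0.988), and its 95% interval ran from 0.961-fold to 1.04-fold. With scaling on the NK lineage genes the log2-fold change of Cyba was instead -0.87, the same as the median of all genes under that scaling.

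**Figure D1:**
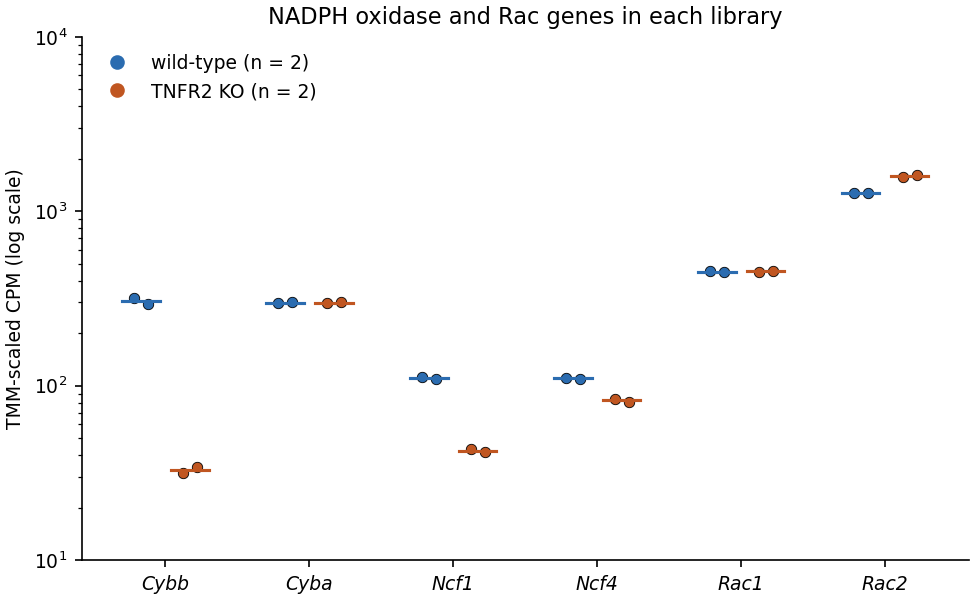
Level of each member in each library, in TMM-scaled CPM on a log axis, with wild-type libraries in blue, TNFR2 KO libraries in orange (2 each) and lines at the group means. Cybb fell from 306 to 33 CPM and Ncf1 from 111 to 42.4 CPM, while the points of Cyba and of Rac1 lie level across the groups.

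Among the cytosolic subunits, Ncf1 encodes p47phox, the organiser that carries the cytosolic complex to the membrane after phosphorylation. It lies on chromosome 5 from 134220053 to 134229625. Ncf1 was measured at 112 and 109 CPM in wild-type and at 43.4 and 41.5 CPM in TNFR2 KO libraries. The groups did not overlap, and the gap between them was far wider than that between duplicates. The mean fell from 111 ± 2.35 to 42.4 ± 1.30 CPM (SD, n = 2 each), giving a log2-fold change of -1.38 (SE 0.0411; 95% interval from -1.47 to -1.29; edgeR adjusted p = 4.00e-11). Of the 31-base stretches of Ncf1 transcripts, 9.84% occur in other genes, most of them in the neighbouring gene Gtf2ird2, so part of its estimated count depends on how reads were shared out.

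Ncf4, the gene of p40phox, which binds a phosphoinositide of phagosome membranes, fell less. It lies on chromosome 15 from 78244801 to 78262580. Its level was 111 and 109 CPM in wild-type and 83.9 and 80.9 CPM in TNFR2 KO libraries. The groups did not overlap, and the duplicates lay close together. The mean of Ncf4 fell from 110.2 ± 1.46 to 82.4 ± 2.15 CPM (SD, n = 2 each), giving a log2-fold change of -0.42 (SE 0.0360; 95% interval from -0.50 to -0.34; edgeR adjusted p = 1.02e-06), short of a change of 1. None of its 31-base stretches occur in another gene.

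Of the GTPases, Rac1 did not pass the test and Rac2 was higher with TMM but lower with scaling on the NK lineage genes. Rac1, the widely expressed form, lies on chromosome 5 from 143503634 to 143528036. Its level was 456 and 446 CPM in wild-type and 451 and 457 CPM in TNFR2 KO libraries. These values overlapped between the groups, and the log2-fold change was 0.01 (SE 0.0247; edgeR adjusted p = 0.774), with a 95% interval from 0.970-fold to 1.045-fold. Library size alone and a filter at a mean of 10 CPM gave a negative sign without passing the test, and scaling on the NK lineage genes gave -0.86. Of the 31-base stretches of Rac1 transcripts, 51.3% occur in other genes, nearly all in Daglb, which overlaps its end on the opposite strand. No source used here says whether the counting used strand. The deposited counts of Rac1 were whole numbers in 4 of 4 libraries, so that no fractional share of reads shows in them. Those of Ncf1 were whole in 0 of 4. How reads were shared out was not tested.

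Rac2, the GTPase of blood cells, was the most abundant member, and the only one to rise with TMM scaling, a direction that turned with scaling on the NK lineage genes. It lies on chromosome 15 from 78559167 to 78572783. Its level was 1267 and 1268 CPM in wild-type and 1569 and 1618 CPM in TNFR2 KO libraries. The groups did not overlap, and the duplicates of wild-type were nearly identical. The mean rose from 1267 ± 0.444 to 1594 ± 34.9 CPM (SD, n = 2 each), a 1.257-fold increase (log2-fold change 0.33; SE 0.0222; edgeR adjusted p = 9.79e-08), whereas scaling on the NK lineage genes turned the log2-fold change of Rac2 to -0.54. Relative to Rac1 in the same library, which no scaling changes, Rac2 per kilobase of exons was 4.03 and 4.11 times as high in wild-type and 5.04 and 5.13 times as high in TNFR2 KO libraries.

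The ends of the Rac coding sequences are shown because the pair differed more there than over the whole coding length. The proteins carry their membrane-binding tail at this end. Over 576 coding bases of GENCODE M21, Rac1 and Rac2 shared 444 bases (77.1%). Over the last 60 coding bases before the stop codon, positions 517 to 576, they shared 33 (55%), and capitals mark the bases that differ.
Rac1: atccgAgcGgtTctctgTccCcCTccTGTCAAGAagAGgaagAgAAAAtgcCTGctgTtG
Rac2: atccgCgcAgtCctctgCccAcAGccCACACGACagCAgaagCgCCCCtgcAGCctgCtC
No 31-base stretch of annotated transcripts was common to Rac1 and Rac2, and 4.42% of those of Rac2 occur in other genes.

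Of the 6 members, 3 were lower at an adjusted p under 0.05 (Cybb, Ncf1 and Ncf4), beside 26.2% of all genes tested, and 1 was higher (Rac2, though lower with scaling on the NK lineage genes), beside 24.2%. With the further requirement of a log2-fold change beyond 1, 2 members were lower (Cybb and Ncf1), beside 11.8% of all genes tested, and 0 were higher, beside 1.56%. Libraries of the groups did not overlap for 4 of the 6 members, beside 74% of genes tested. The counts of members are small, and calls in either direction were common in the whole table. The members ranged from -3.22 to 0.33 on the log2 scale, whereas the middle 50% of all genes ran from -0.29 to 0.18.

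**Figure D2:**
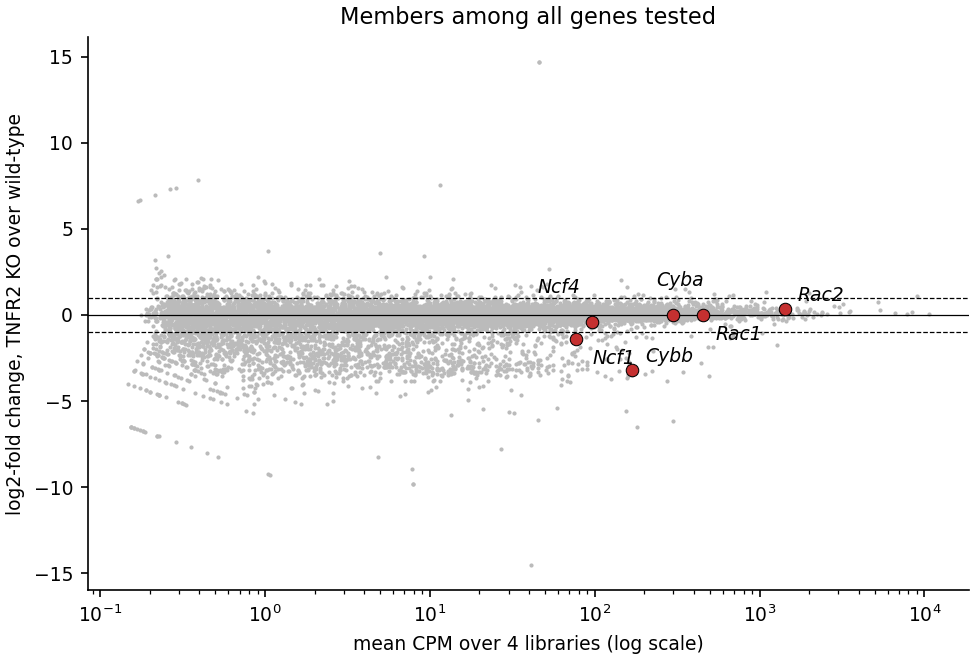
Log2-fold change (TNFR2 KO over wild-type) against mean CPM over the 4 libraries (log axis) for all genes tested, in grey, with the 6 members in red and dashed lines at 1 and -1. Cybb and Ncf1 lie below the lower line at -3.22 and -1.38, and the other members lie between the lines.

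Set per kilobase of exons, which allows levels of different genes to be compared, the members of the wild-type libraries ran in the order Rac2, Cyba, Rac1, Ncf4, Cybb and Ncf1. Rac2 stood at 408 ± 0.143, Cyba at 288 ± 2.87 and Rac1 at 100.3 ± 1.5 CPM per kilobase (SD, n = 2). Ncf4 at 54.5 ± 0.723 and Cybb at 52.6 ± 2.61 were neighbours that overlapped between libraries, and Ncf1 was lower at 30.3 ± 0.643. The membrane subunits were therefore at unlike levels already in wild-type libraries.

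In TNFR2 KO libraries Cybb took the last place. Rac2 stood at 514 ± 11.3, Cyba at 289 ± 4.64, Rac1 at 101 ± 0.979, Ncf4 at 40.8 ± 1.06, Ncf1 at 11.6 ± 0.355 and Cybb at 5.68 ± 0.348 CPM per kilobase (SD, n = 2), and no neighbours overlapped. Cyba exceeded Cybb 5.26-fold and 5.72-fold in the wild-type libraries and 52.5-fold and 49.3-fold in the TNFR2 KO libraries. Ncf4 exceeded Ncf1 1.79-fold and 1.81-fold in wild-type and 3.51-fold and 3.53-fold in TNFR2 KO libraries. These ratios are taken within a library, so that no scaling between libraries enters them.

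**Figure D3:**
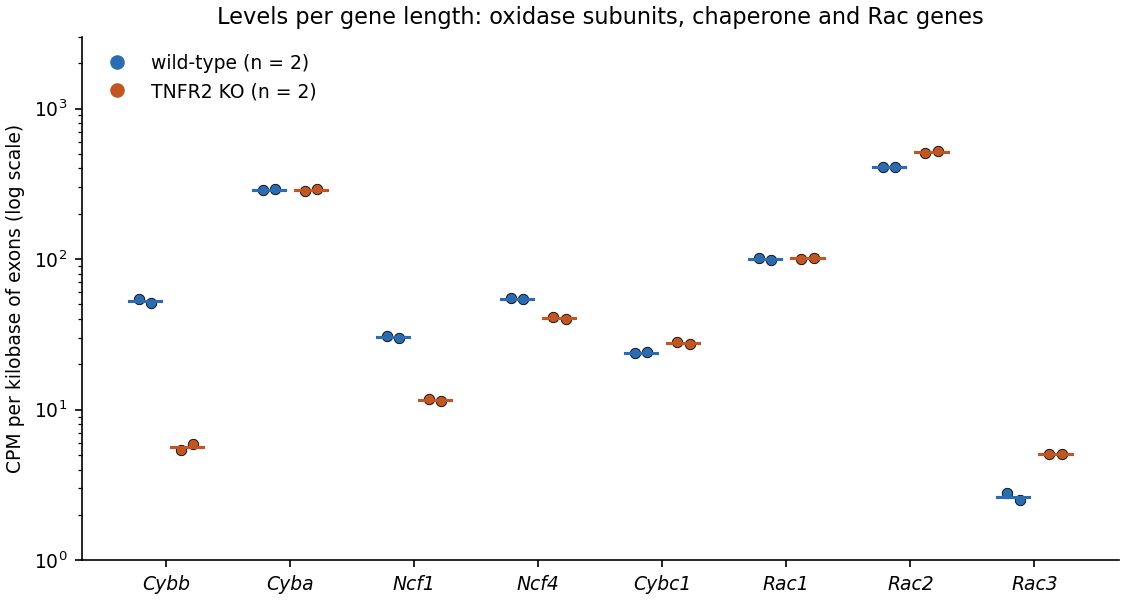
CPM per kilobase of the union of annotated exons (log axis) in each library for the members and for Cybc1 and Rac3, with wild-type in blue, TNFR2 KO in orange and lines at the group means (n = 2). Cybb falls from 52.6, beside Ncf4, to 5.68, below Ncf1 at 11.6.

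Relative to Rac2 in the same library, Cybb was at 25% and 23.3% in wild-type and at 2.01% and 2.13% in TNFR2 KO libraries (by CPM, not per length). Ncf1 was at 8.88% and 8.61% in wild-type and at 2.76% and 2.57% in TNFR2 KO libraries. Ncf4 was at 8.78% and 8.61% and then at 5.35% and 5.0%. All 3 ratios were lower in both TNFR2 KO libraries. Cyba and Rac1 were lower relative to Rac2 as well, Cyba at 23.5% and 23.8% against 18.9% and 18.7%, and Rac1 at 36.0% and 35.2% against 28.8% and 28.3%. For each of these 5 ratios the exact two-sided permutation test gave p = 0.333, the smallest that 2 libraries against 2 allow.

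Markers of other cells moved with Cybb and Ncf1. Of 21 macrophage or monocyte markers tested (22 listed), 18 fell past both thresholds and 3 rose, with a median log2-fold change of -3.00, and none was at 0 in every library. Their summed level was 3178 and 3124 CPM in wild-type and 1390 and 1371 CPM in TNFR2 KO libraries. Csf1r, the receptor for the macrophage growth factor, fell from 255 to 27.0 CPM, a log2-fold change of -3.24, and Adgre1, which encodes F4/80, changed by -3.36. These 2 were chosen after their values were seen.

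Within a library, Cybb stood at 1.25 and 1.16 times Csf1r in wild-type and at 1.15 and 1.29 times in TNFR2 KO libraries, so that this ratio of CPM values overlapped between the groups. For Ncf1 the ratio to Csf1r was 0.443 and 0.427 in wild-type and 1.58 and 1.56 in TNFR2 KO libraries, and for Ncf4 it was 0.438 and 0.427 and then 3.07 and 3.03. Relative to Adgre1, Cybb stood at 3.26 and 3.14 times in wild-type and at 3.25 and 3.89 times in TNFR2 KO libraries. The summed macrophage or monocyte list includes the 3 markers that rose, Ccr2, Ly6c2 and Cx3cr1. Their means were 394, 262 and 38.4 CPM in wild-type and 678, 314 and 71.6 CPM in TNFR2 KO libraries. Their log2-fold changes were 0.78, 0.26 and 0.90, beside a median of 0.85 for the NK lineage genes. The cells that this RNA came from were not tested. By their means these 3 markers held most of the sum of the list in TNFR2 KO libraries, but not in wild-type. Against that sum Cybb was instead lower, at 9.95% and 9.44% in wild-type and 2.27% and 2.51% in TNFR2 KO libraries. Ncf1 stood at 3.54% and 3.49% of that sum in wild-type and at 3.12% and 3.03% in TNFR2 KO libraries. How each member compared with these markers thus depended on the marker chosen. All 16 neutrophil markers fell past both thresholds (median log2-fold change -2.25), among them Mpo (-6.50), S100a9 (-2.22) and Ngp (-2.66). The part that macrophage, monocyte or neutrophil RNA had in the values of the members was not tested.

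Other marker lists moved too. All 7 mast cell or basophil markers fell past both thresholds (median -5.49), led in level by Prss34 (-6.18), Mcpt8 (-5.57) and Cpa3 (-5.41). All 7 erythroid markers passed the adjusted p and were lower, 6 of them past both thresholds, among them Hba-a1 (-2.39), Hbb-bs (-2.32) and Hbb-bt (-2.07). Of 10 dendritic cell markers tested, 5 were lower and 1 higher, with Cd74 at -3.57 and H2-Ab1 at -3.49 but Itgax, which activated NK cells also express, at 1.11. The other lower markers were H2-Aa (-3.66), H2-Eb1 (-3.54) and Clec9a (-2.61). The 4 that did not pass were Zbtb46 (-0.04), Flt3 (-1.26), Xcr1 (-0.96) and Siglech (-0.45), with wild-type means of at most 2.72 CPM. Of 7 T cell markers 5 were lower and 1 higher, none past both thresholds (4 with scaling on the NK lineage genes), with Cd4 at -0.56, Cd3e at -0.26 and Cd3g at 0.10. Of 3 B cell markers tested 1 was lower and 1 higher, with Ighm at 0.33, Cd79b at -0.65 and Blk at 0.42, the last not past the test (edgeR adjusted p = 0.573). Among the most abundant macrophage markers Lyz2 changed by -2.79 and Mpeg1 by -3.29, while Ccr2 changed by 0.78. NK lineage genes were higher for 23 of 24 (median 0.85), with Gzma at 1.08, Gzmb at 0.75 and Il2rb at 0.44, of which Gzmb and Il2rb were negative, as were Ccr2, Ighm, Blk and Cd3g, after scaling on the sum of these NK lineage genes.

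The counts of this and the following lists stand beside the shares over all genes tested. Those were 26.2% lower and 24.2% higher at an adjusted p under 0.05, and 11.8% lower and 1.56% higher past both thresholds. Of 11 other genes of oxidase chaperones, homologs and further Rac GTPases listed, 3 were tested, 0 of which were lower and 2 higher (Cybc1 and Rac3), with a median log2-fold change of 0.22 beside -0.0028 for all genes. Cybc1, whose product EROS is a chaperone that gp91phox needs in order to be stable, was at 100.1 and 101 CPM in wild-type and at 119 and 115 CPM in TNFR2 KO libraries. The values of Cybc1 did not overlap, and its log2-fold change was 0.22 (edgeR adjusted p = 2.08e-04), which became -0.65 with scaling on the NK lineage genes. Rac3, another Rac GTPase, known mainly from brain, was at 3.59 and 3.26 CPM in wild-type and at 6.59 and 6.55 CPM in TNFR2 KO libraries. Its log2-fold change was 0.94 (edgeR adjusted p = 1.83e-04), and 0.07 without passing the test when scaled on the NK lineage genes. Noxo1, an organiser homologous to p47phox, had between 15 and 43 counts per library and did not pass (log2-fold change -0.69; edgeR adjusted p = 0.168), except with scaling on the NK lineage genes (-1.55).

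Of the other catalytic genes of the family, Nox1 had at most 5, Nox4 at most 7 and Duox2 at most 2 counts in a library. The catalytic genes Nox3 and Duox1, and Duoxa1 and Duoxa2, whose products help DUOX enzymes to mature, had 0 in every library, which allows up to 3 counts, or between 0.0776 and 0.0936 CPM. That limit covers counting error only. Cybb was thus the one gene of a catalytic NOX subunit read at more than 7 counts in a library.

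Activators load Rac with GTP, and all 21 listed were tested, of which 6 were lower and 10 higher at an adjusted p under 0.05 and 3 lower past both thresholds, with a median log2-fold change of 0.08. The 3 most abundant, Dock2, Prex1 and Dock8, changed by 0.30, 0.36 and 0.21 with TMM and by -0.57, -0.51 and -0.66 with scaling on the NK lineage genes. Dock2 is the main Rac activator in migrating lymphocytes, and its mean rose from 708 to 873 CPM with TMM. Tiam1 fell from 25 to 9.72 CPM (log2-fold change -1.36; edgeR adjusted p = 3.64e-08). Dock1, which acts in the uptake of dying cells, fell from 4.95 to 0.477 CPM (-3.36; edgeR adjusted p = 1.51e-07). Of 14 inhibitors tested, 2 were lower and 8 higher, none past both thresholds, with a median of 0.10. Arhgdib, a GDP dissociation inhibitor of blood cells, changed by 0.17, Arhgdia by 0.01 without passing the test, and Arhgap30 by 0.09, and these changes were negative when scaled on the NK lineage genes.

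Of 26 receptors and kinases upstream of the oxidase, 13 were lower, 11 of them past both thresholds, and 10 were higher, with a median of -0.18. Clec7a, the beta-glucan receptor Dectin-1, fell from 68.5 to 10.2 CPM (-2.74), and Ptafr, the receptor for platelet-activating factor, fell from 49.0 to 4.24 CPM (-3.52). The 3 most abundant genes of the list were higher with TMM. Itgam and Itgb2, which together encode the integrin Mac-1, changed by 0.94 and 0.42, and Pik3cd, a lipid kinase subunit of leukocytes, by 0.15, while scaling on the NK lineage genes turned Itgb2 to -0.45 and Pik3cd to -0.72 and left Itgam at 0.07. Of 23 actin effectors of Rac tested, 2 were lower and 11 higher, none past both thresholds (median 0.08), and the most abundant, Cfl1, Actr3 and Iqgap1, had log2-fold changes of 0.05, 0.04 and 0.05 that did not pass the test and changed sign with library size alone and with scaling on the NK lineage genes.

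**Figure D4:**
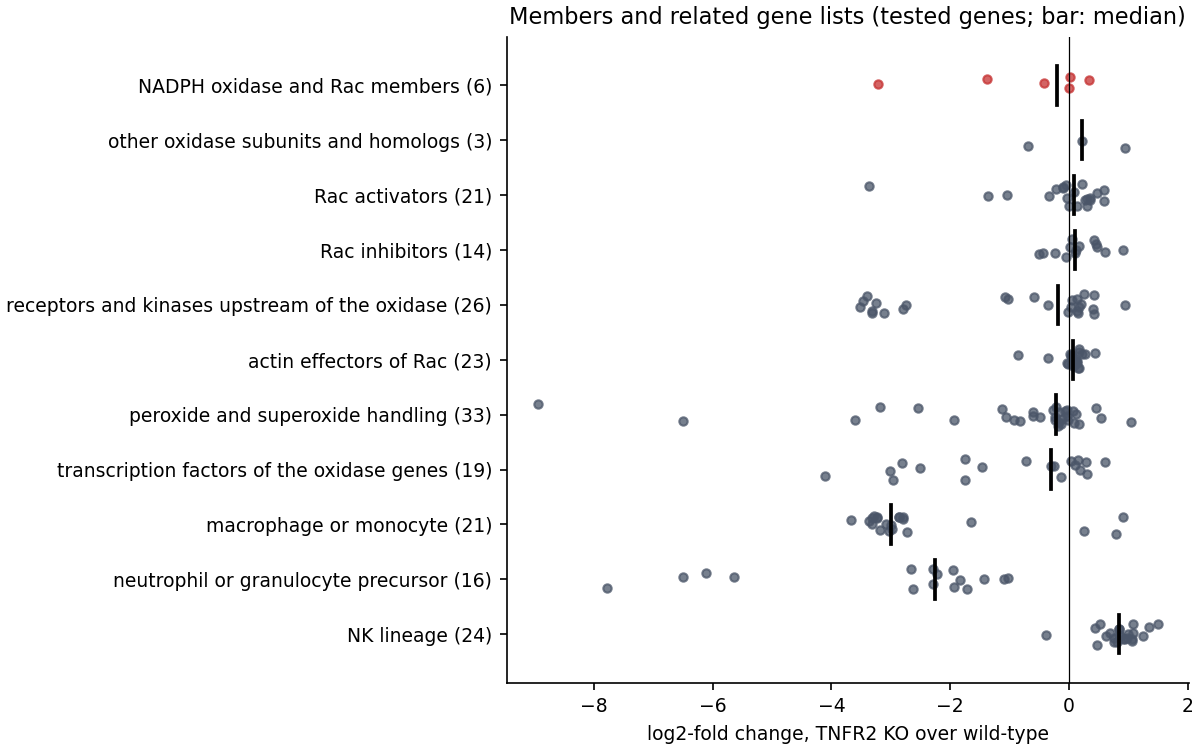
Log2-fold change (TNFR2 KO over wild-type) for each tested gene (points) of the members, the related gene lists and 3 marker lists, with the number tested in brackets and a bar at the median. The macrophage and neutrophil lists have medians of -3.00 and -2.25 and the NK lineage list of 0.85. The medians of Rac activators, inhibitors and actin effectors lie near 0, though points of the activators reach -3.36.

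Superoxide becomes hydrogen peroxide, which other enzymes use or remove. Of 33 tested genes that handle peroxide or superoxide, 20 were lower and 5 higher, 8 and 1 of them past both thresholds, with a median of -0.22. Mpo, the neutrophil enzyme that makes hypochlorous acid from peroxide, fell from 358 to 3.96 CPM (-6.50), and Hmox1, a haem-degrading enzyme abundant in macrophages, fell from 203 to 35 CPM (-2.53). The abundant genes Prdx1 and Txn1, for a peroxiredoxin and thioredoxin, both changed by -0.24 with TMM. With scaling on the NK lineage genes they changed by -1.11 and -1.10. Txnrd1, which reduces thioredoxin, changed by 0.09 with TMM (edgeR adjusted p = 0.0285) and by -0.78 with scaling on the NK lineage genes. Gpx8, a peroxidase of the endoplasmic reticulum, rose from 21.8 to 45.0 CPM with TMM (1.05; edgeR adjusted p = 1.57e-08). With scaling on the NK lineage genes the log2-fold change of Gpx8 was 0.18.

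Of 19 tested transcription factors known to act on oxidase genes, 11 were lower, 8 of them past both thresholds, and 6 were higher, with a median of -0.30. Spi1, which encodes PU.1, the myeloid ETS factor, fell from 72.4 to 9.26 CPM (-2.97; edgeR adjusted p = 8.68e-13), and Cebpa, a factor of granulocyte and monocyte precursors, fell from 39.9 to 2.31 CPM (-4.11). Irf1, an interferon-induced factor that binds IRF elements, fell from 401 to 325 CPM (-0.30; edgeR adjusted p = 1.44e-06). Irf8, a factor that binds IRF elements and is expressed in NK cells after this infection, changed by 0.60 and Ets1, an ETS factor of lymphocytes, by 0.29 with TMM, against -0.27 and -0.58 with scaling on the NK lineage genes.

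The genes whose profile over the 4 libraries was nearest to that of Cybb were sought among 8758 genes that averaged 10 CPM or more, by the Euclidean distance between log2 CPM centred on each gene's own mean. They were Lrp1 at a distance of 0.0518, Ace at 0.0581, Batf2 at 0.0665, Ciita at 0.0740 and Mpeg1 at 0.0796, with log2-fold changes between -3.29 and -3.18. Nearest to Rac2 were Dnajc15, Pck2, Kif13b, Hectd3 and Taf9b, at distances from 0.00548 to 0.0172 and with log2-fold changes between 0.32 and 0.34, which were all negative with scaling on the NK lineage genes. With 4 libraries such distances describe mainly the difference between the groups.

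The order of the members by log2-fold change, with Cybb lowest, then Ncf1, then Ncf4, and Rac2 highest, was the same in the plot of the members under each setting. Scaling on the NK lineage genes moved all 6 down by about the shift in the median of all genes, to -4.08 for Cybb, -2.25 for Ncf1, -1.29 for Ncf4 and -0.54 for Rac2. Under that scaling all 6 members were lower past the adjusted p, and 3 past both thresholds.

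**Figure D5:**
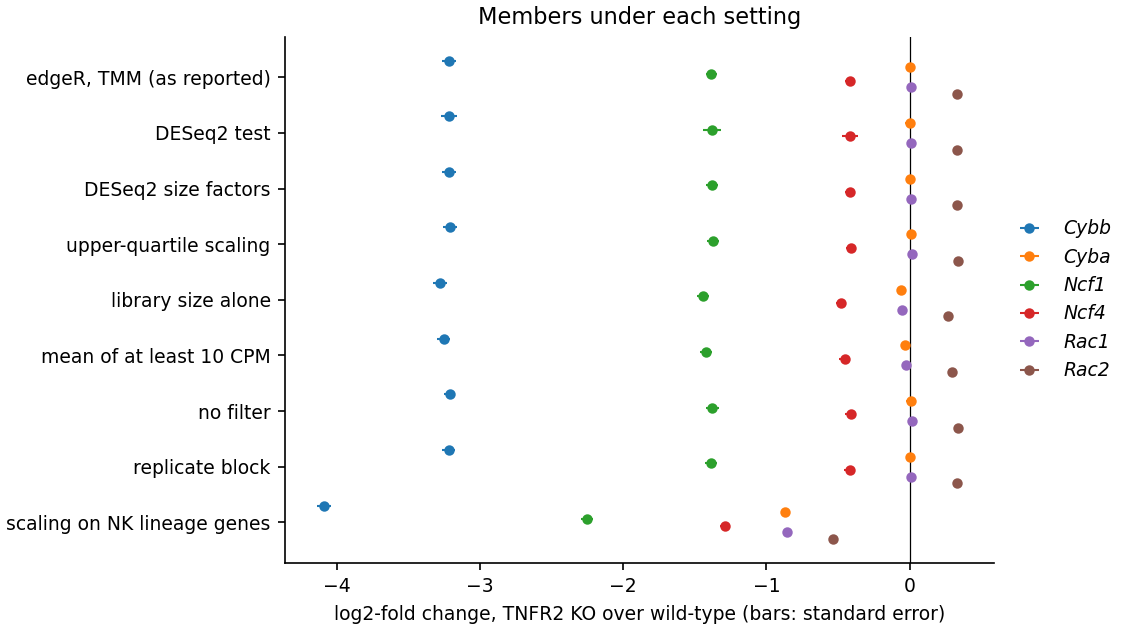
Log2-fold change, TNFR2 KO over wild-type (points), with its standard error (bars) for each member under the reported fit and 8 alternatives. Cybb, Ncf1 and Ncf4 lie below 0 in every row, Cyba and Rac1 beside 0 in all but the last, and Rac2 above 0 in all but the last, where scaling on the NK lineage genes puts it at -0.54.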

How the data were processed

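RNA was measured in 4 libraries of sorted Ly49H+ NK cells, as poly-A selected, strand-specific, paired-end reads. The authors trimmed reads with Trimmomatic 1.4, assigned them to mm10 transcripts with Kallisto 0.46.1, and deposited estimated counts (expected counts) summed per gene with Tximport, unscaled between libraries. No source used here names the transcript annotation. A row without a gene name, holding between 0.0559% and 0.0728% of counts, was left out.

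Counts were rounded and tested with edgeR 4.0.16 (R 4.3.3): filterByExpr, TMM factors, the quasi-likelihood test with a term for genotype alone, and p-values adjusted by Benjamini-Hochberg over 13822 genes, after the same steps had been tested on simulated data. The thresholds were 0.05 for the adjusted p and, for calls past both, a log2-fold change beyond 1 in either direction. The members, gene lists and tests were chosen with earlier results of these data known. Duplicates differed by more than sampling noise (mean chi-square per gene 3.36 for wild-type and 3.58 for TNFR2 KO). The study describes 1 experiment in duplicate, with a pooled spleen sample from 3 infected mice. The p-values thus measure only the spread between these duplicates, which may not be a spread between animals. The description label of each library names the library of the other genotype that came from its spleen pool, which pairs libraries of the same number, and their deviations from the group means had a correlation of 0.17 over 8759 genes.

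Gene positions, exon lengths, coding sequences and shared 31-base stretches came from GENCODE M21 on GRCm38, and promoters from RefSeq on GRCm38.p6. Genes named were the 6 members, the targeted gene, of each related list the 3 most abundant and, in each direction, the 2 with the smallest adjusted p past both thresholds, of each marker list the 3 most abundant, and the 5 nearest profiles to Cybb and to Rac2. The NOX and DUOX genes, Csf1r, Adgre1 and the less abundant dendritic cell markers were added after their values were seen. Some genes of these pathways are not reported here and were left out of the lists. Plots used matplotlib 3.10.9 under Python 3.11.15.

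Alternatives were library size alone, the summed NK lineage genes, upper-quartile scaling or DESeq2's size factors in place of TMM, the DESeq2 1.42.0 test, no filter, a filter at a mean of 10 CPM, a replicate block, the longest transcript in place of the union of exons, and each library left out in turn.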

Additional observations from a re-analysis of the deposited data

How the results depend on the processing

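Cybb, Ncf1 and Ncf4 kept their direction and an adjusted p under 0.05 under all 12 alternatives to the reported fit. When 1 library at a time was left out, the log2-fold change ran from -3.27 to -3.14 for Cybb, -1.41 to -1.35 for Ncf1, -0.44 to -0.39 for Ncf4, 0.31 to 0.36 for Rac2, 0.0032 to 0.033 for Rac1 and -0.011 to 0.028 for Cyba, whose sign turned without wild-type replicate 1 (-0.0015) or TNFR2 KO replicate 2 (-0.011). The paired fit, with the replicate block, called 1830 genes and left the log2-fold change at -3.22 for Cybb and 0.33 for Rac2, and it changed the call of no member. The DESeq2 test called 1603 genes, and leaving out a library between 1650 and 1867, against 1842 in the reported fit. A filter at a mean of 10 CPM, which tests fewer genes, called 480, and scaling on the NK lineage genes called 4671, 99.4% of them lower against 88.3% in the reported fit. Genes past both thresholds under scaling on the NK lineage genes numbered 1 of the other oxidase genes (Noxo1), 5 Rac activators, 3 Rac inhibitors, 2 actin effectors and 21 peroxide genes, against 0, 3, 0, 0 and 9. With the filter at 10 CPM there were 5 peroxide genes and 3 transcription factors, the latter against 8. Among marker lists, scaling on the NK lineage genes gave 4 T cell, 1 B cell and 1 NK lineage gene past both thresholds against 0, 0 and 7, and the 10 CPM filter gave 3 erythroid genes against 6. Leaving out a library gave 0 to 1 other oxidase genes, 1 being reached without wild-type replicate 1, where Rac3 passed 1.

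Library size alone turned the sign of Cyba (-0.060), Rac1 (-0.051), Arhgdia (-0.047), Actr3 (-0.016), Cfl1 (-0.016) and Iqgap1 (-0.016), and the 10 CPM filter that of Cyba (-0.036), Rac1 (-0.026) and Arhgdia (-0.022), none past the test in either fit. Scaling on the NK lineage genes, whose sum was higher in TNFR2 KO libraries, turned Cyba (-0.87), Rac1 (-0.86), Rac2 (-0.54), Cybc1 (-0.65), Dock2 (-0.57), Prex1 (-0.51), Dock8 (-0.66), Arhgdib (-0.69), Arhgdia (-0.85), Arhgap30 (-0.78), Itgb2 (-0.45), Pik3cd (-0.72), Cfl1 (-0.82), Actr3 (-0.82), Iqgap1 (-0.82), Txnrd1 (-0.78), Ets1 (-0.58), Irf8 (-0.27), Ccr2 (-0.084), Ighm (-0.54), Blk (-0.44), Cd3g (-0.77), Gzmb (-0.11), Il2rb (-0.43), Dnajc15 (-0.54), Pck2 (-0.55), Kif13b (-0.54), Hectd3 (-0.53) and Taf9b (-0.54). Arhgap30, Txnrd1 and Cd3g lost their calls with library size alone and with the 10 CPM filter. Divided by the longest transcript in place of the union of exons, wild-type levels were 417 for Rac2, 403 for Cyba, 108 for Rac1, 75.3 for Ncf4, 64.3 for Cybb and 38.5 for Ncf1 CPM per kilobase, the same order. Depth limits the genes under about 10 CPM most, here Rac3, Dock1, Noxo1, Cd79b, Blk, Clec9a, Zbtb46, Flt3, Xcr1 and Siglech.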
